A study of Homo sapiens with 6 samples.

Results

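The genes described here encode the histones, the proteins around which DNA is wound, and they were followed in human cells with and without p53. Members were the rows of the count table whose symbol starts with HIST1H, HIST2H, HIST3H or HIST4H, together with 9 named variant genes, and 14 further symbols were dropped as pseudogenes. This gave 84 of 55882 genes, made up of 75 clustered genes and 9 variant genes. The rule went by symbol, and the GENCODE 29 annotation types 5 of the clustered genes kept as pseudogenes. These are HIST2H2BA, HIST2H2BB, HIST2H2BC, HIST2H2BD and HIST3H2BA, of which HIST2H2BC and HIST2H2BD were tested. All 6 libraries came from DIvA cells, a derivative of the osteosarcoma line U2OS with an inducible AsiSI, a restriction enzyme, and all cells were given 300 nM 4-hydroxytamoxifen (4-OHT) for 5 h, which brings the enzyme into the nucleus to cut DNA. There were 3 libraries of p53 WT cells and 3 of p53 KO cells, in which p53, a transcription factor activated by DNA damage, was knocked out. No library came from cells without 4-OHT, so each difference below is between genotypes in cells that were all treated. The labels do not say how many knockout clones were used or whether replicates were separate cultures, so p-values measure the spread between these samples, which may be technical.

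Clustered histone genes lie in tandem groups, mostly without introns, and are transcribed in S phase, when newly copied DNA needs new histones. Their transcripts usually end not in a poly(A) tail but in a short stem-loop that is bound by the protein SLBP, and selection for poly(A) leaves most of that RNA behind. Some clustered genes also give tailed transcripts that run past the stem-loop, while variant (replacement) histone genes have introns or ordinary ends, carry poly(A) tails and are expressed outside S phase too. Because the RNA measured here was polyadenylated, a level below is that of the tailed or carried-over RNA of a gene and not of its whole output. In such bulk RNA, fewer cells expressing a gene and less RNA per cell cannot be told apart.

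The stem-loop is shown here because it marks the clustered genes and the form of their RNA that has no tail. A search of GENCODE 29 transcripts (GRCh38) for its 16-base form found it in 29 members, all of them clustered, and in 0 of the 9 variant genes. The most common form was found in 18 members, among them HIST2H2BE and HIST1H2AC, and the form of HIST1H4H in 5. Capitals mark the whole stem-loop.
HIST2H2BE: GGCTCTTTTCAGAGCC
HIST1H4H: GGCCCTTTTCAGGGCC
The remaining 46 clustered members have gene models that hold no stem-loop, among them HIST1H2BK, whose model is 381 bases long. A model without a stem-loop says only that these letters are not in it. In 21 members a transcript ran at least 100 bases past the stem-loop, and that of HIST2H2BE ran 1729 bases past it. Since models differ so much in what they cover, levels were not compared between genes.

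The stretch before the gene start is shown for the H2B genes that changed most clearly, for HIST1H2BM, an H2B gene that moved the other way, and for H2AFJ, the variant gene with the largest difference. H2B promoters carry the octamer ATTTGCAT, known to bind the factor OCT1, along with CCAAT and TATA motifs. Each line gives 150 bases ending just before the RefSeq start on GRCh38.p14, another build than the GRCh37 of the counts. Capitals mark ATTTGCAT and TATAAA as read 5′ to 3′ and CCAAT on either strand. In the order printed the stretches are chr6:27146859-27147008 (minus strand), chr6:27132796-27132945 (minus strand), chr6:26157971-26158120 (plus strand), chr1:149886683-149886832 (minus strand), chr6:27814872-27815021 (plus strand) and chr12:14774255-14774404 (plus strand).
HIST1H2BK: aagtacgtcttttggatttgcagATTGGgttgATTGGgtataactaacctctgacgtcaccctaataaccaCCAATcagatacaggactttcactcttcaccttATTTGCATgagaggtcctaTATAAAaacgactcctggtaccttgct
HIST1H2BJ: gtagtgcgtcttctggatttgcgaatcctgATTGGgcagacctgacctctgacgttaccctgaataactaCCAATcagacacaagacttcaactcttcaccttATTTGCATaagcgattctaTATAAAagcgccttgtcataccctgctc
HIST1H2BD: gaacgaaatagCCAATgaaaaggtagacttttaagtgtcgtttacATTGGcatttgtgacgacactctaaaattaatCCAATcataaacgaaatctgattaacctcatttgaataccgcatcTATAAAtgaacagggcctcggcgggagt
HIST2H2BE: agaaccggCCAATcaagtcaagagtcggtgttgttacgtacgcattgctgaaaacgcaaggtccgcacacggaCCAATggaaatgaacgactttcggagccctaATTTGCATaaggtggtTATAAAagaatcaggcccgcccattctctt
HIST1H2BM: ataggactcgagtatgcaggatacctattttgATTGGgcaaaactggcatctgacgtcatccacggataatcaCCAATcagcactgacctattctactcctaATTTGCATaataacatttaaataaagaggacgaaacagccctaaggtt
H2AFJ: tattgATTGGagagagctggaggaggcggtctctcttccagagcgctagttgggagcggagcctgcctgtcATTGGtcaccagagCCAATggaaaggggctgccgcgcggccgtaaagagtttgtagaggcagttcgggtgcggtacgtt
In HIST1H2BK, HIST1H2BJ, HIST2H2BE and HIST1H2BM the octamer begins 46, 47, 46 and 48 bases before the start. HIST1H2BD and H2AFJ have no octamer in the stretch.

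Total counts ranged from 24347609 to 79767519 in p53 WT libraries and from 20393909 to 72621732 in p53 KO libraries. Where a count is 0, up to 3 counts remain possible, or 0.0381 to 0.150 CPM (counts scaled to library size and TMM factors), for counting error only. The p53 targets CDKN1A and MDM2 fell from 542 ± 27.0 to 45.8 ± 3.68 CPM and from 221 ± 29.6 to 57.6 ± 13.3 CPM (SD, n = 3 each), in the direction the labels imply. Of 9 mesenchymal and osteoblast markers 6 had at least 1 CPM in each library, with SP7 and IBSP at 0. Their summed level was 5330 to 5944 CPM in p53 WT and 3434 to 3852 CPM in p53 KO libraries, with VIM lower in p53 KO (at most 1665 CPM, against at least 3079). SPARC, RUNX2, ALPL and CDH2 were also lower in each p53 KO library than in any p53 WT library, and BGLAP overlapped. Only COL1A1 was higher in p53 KO (at least 869 CPM, against at most 700). Markers of epithelial, endothelial and leukocyte cells summed to 9.53 to 14.0 CPM in p53 WT and 13.03 to 21.4 CPM in p53 KO libraries, with CD3E at 0 in all libraries but 1, and the part of these markers in the results was not tested.

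The library of p53 KO replicate 1 stood apart for RNAs that normally lack a poly(A) tail. A list of 16 such RNAs, with RMRP, RPPH1, RN7SK and RN7SL1 among them, summed to 253, 163 and 274 CPM in p53 WT replicates 1 to 3 and to 511, 247 and 317 CPM in p53 KO replicates 1 to 3. The groups overlapped, and the ratio of the means, 1.56, was 1.23 without p53 KO replicate 1. By edgeR 1 of 10 tested rose, RMRP, the RNA part of an RNase, at 0.85 ± 0.29 (adjusted p = 0.0426). None rose without p53 KO replicate 1, and the count was also 0 without p53 WT replicate 2, p53 WT replicate 3 or p53 KO replicate 3 and by DESeq2. It was 3 by limma-voom, 3 with the median shift of neighbouring genes taken off, 4 with no filter on low counts and 4 without p53 KO replicate 2. The library of p53 KO replicate 1 was the highest for 8 of 10 such RNAs tested and for 24 of the 44 tested clustered genes outside the list of tailed forms described next. HIST3H2A, an H2A gene named after its values were seen, had 44 counts in that library and 0 in the other 5. Counts, medians and sums of the clustered genes are given with and without it, and the part of carried-over RNA in them was not tested.

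In the comparison of p53 KO with p53 WT cells, most clustered genes known for tailed transcripts fell, and most other clustered genes did not pass the test. These sets differ in depth: the former had at least 1219 counts in total, and the others tested had as few as 47. Of the others, HIST1H4H (1232 counts) fell and HIST1H2AG (1287 counts) did not pass, and the part of depth in this contrast was not tested. By edgeR's quasi-likelihood test with Benjamini-Hochberg adjustment over 22352 genes, 60 members had enough counts to be tested, and an adjusted p under 0.05 is called a change. Among 51 clustered genes tested 7 fell and 2 rose, and among 9 variant genes tested 1 fell and 3 rose. Over all genes tested, 14.4% fell and 12.1% rose, 26.5% together. The 24 members not tested were all clustered, 7 of them with no count in any library and 8 with 1 to 9 counts in total.

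The list of clustered genes known to give tailed transcripts has 7 members, HIST1H1C, HIST1H2AC, HIST1H2BC, HIST1H2BD, HIST1H2BJ, HIST1H2BK and HIST2H2BE. In p53 KO cells 6 of these 7 fell, with a median log2 fold change of -0.97 (-0.84 without p53 KO replicate 1, with 5 falling) against 0.01 over all genes tested. Their summed level was 377, 305 and 340 CPM in p53 WT replicates 1 to 3 and 197, 210 and 199 CPM in p53 KO replicates 1 to 3. The groups did not overlap, with means of 341 ± 35.7 and 202 ± 7.07 CPM and a ratio of 0.592 (0.599 without p53 KO replicate 1). Of the 44 other clustered genes tested 1 fell and 2 rose, with a median of 0.46 and 28 above 0. Without p53 KO replicate 1 the median of the 39 then tested was -0.17, with 17 above 0, so the sign of this median rests on that library. Split by annotation instead of by this list, 2 of 13 tested genes with at least 100 bases past the stem-loop fell and 0 rose. Of the 38 other clustered genes tested 5 fell and 2 rose, and both shares that fell are near the 14.4% of all genes. The models of HIST1H1C, HIST1H2BC, HIST1H2BD, HIST1H2BJ and HIST1H2BK hold no stem-loop, so this split puts these listed genes among the others. It therefore cannot sort tailed from untailed genes.

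HIST1H2BK encodes a core histone H2B and had the most counts of the list. It had 201, 161 and 174 CPM in p53 WT replicates 1 to 3 and 79.8, 98.9 and 93.1 CPM in p53 KO replicates 1 to 3. Each p53 KO library lay below each p53 WT library, and the log2 fold change was -0.98 ± 0.11 (SE, n = 3 per group; adjusted p = 2.49e-05).

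HIST1H2BJ, another H2B gene of the same cluster, had 18.0, 13.9 and 19.5 CPM in p53 WT and 7.23, 9.55 and 9.52 CPM in p53 KO libraries. Its log2 fold change was -0.97 ± 0.19 (adjusted p = 0.00145). HIST1H2BD had 14.5, 12.4 and 12.3 CPM in p53 WT and 6.20, 7.06 and 5.51 CPM in p53 KO libraries. The groups of both genes were apart, and HIST1H2BD changed by -1.06 ± 0.18 (adjusted p = 0.000644). HIST2H2BE, an H2B gene of the HIST2 cluster on chromosome 1, had 11.1, 9.93 and 10.6 CPM in p53 WT and 4.53, 4.32 and 5.11 CPM in p53 KO libraries. Its log2 fold change was -1.19 ± 0.19 (adjusted p = 0.000375), again with groups apart.

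HIST1H1C, which encodes a linker histone that binds where DNA enters and leaves the nucleosome, fell less. Its level was 106, 84.6 and 96.3 CPM in p53 WT and 75.9, 69.4 and 72.3 CPM in p53 KO libraries. The groups did not overlap, and the log2 fold change was -0.40 ± 0.11 (adjusted p = 0.0138), or -0.33 without p53 WT replicate 1, where the call was lost (adjusted p = 0.0665). HIST1H2BC had 5.36, 4.16 and 4.85 CPM in p53 WT and 3.20, 2.59 and 2.81 CPM in p53 KO libraries. It changed by -0.74 ± 0.25 (adjusted p = 0.0453), and the call was lost without any 1 of the 6 libraries, with values from -0.83 to -0.65.

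HIST1H2AC, the H2A gene that shares its upstream region with HIST1H2BC, was the listed gene that did not pass the test. It had 20.6, 19.4 and 23.1 CPM in p53 WT and 19.7, 17.8 and 10.2 CPM in p53 KO libraries. Of the p53 KO libraries, replicate 1 lay in the p53 WT range, replicate 2 just below it and replicate 3 far below it, so the groups overlapped, with a log2 fold change of -0.39 ± 0.20 (95% interval -0.78 to 0.01; adjusted p = 0.192).

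HIST1H4H, an H4 gene, was the only clustered gene outside that list that fell. Its level was 5.63, 5.68 and 4.64 CPM in p53 WT and 1.51, 3.00 and 2.96 CPM in p53 KO libraries. The groups were apart, and the log2 fold change was -1.12 ± 0.30 (adjusted p = 0.0126), or -1.07 without p53 WT replicate 2, where the call was lost (adjusted p = 0.0565). Its stem-loop, printed above, is followed by 18 bases in the shortest GENCODE 29 transcript and by 1655 bases in the longest.

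**Figure D1:**
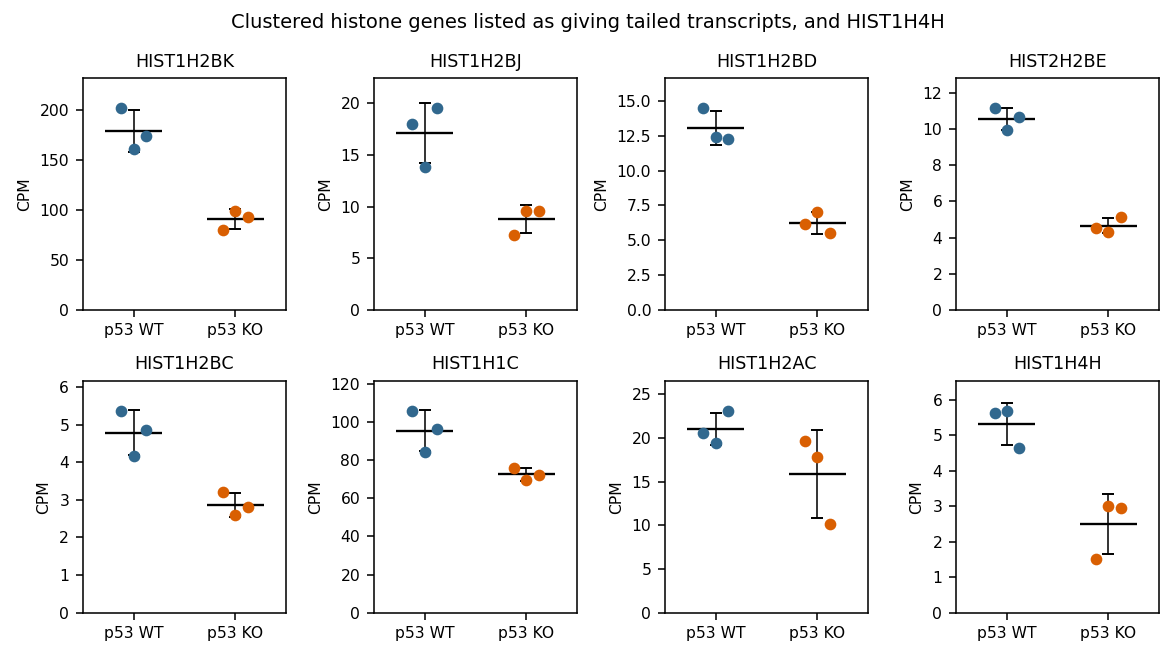
Levels (CPM, linear axes from 0) of the 7 clustered histone genes listed as giving tailed transcripts and of HIST1H4H, with points for the 3 p53 WT and 3 p53 KO libraries in the order of their replicate numbers and bars for the mean ± SD. The groups are apart for each gene shown except HIST1H2AC, whose p53 KO libraries run from 10.2 to 19.7 CPM.

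The clustered genes that rose did so at low counts. HIST1H1E, a linker histone gene, had 1.86, 0.862 and 0.904 CPM in p53 WT and 5.12, 2.30 and 1.75 CPM in p53 KO libraries. The groups overlapped, and the log2 fold change of 1.34 ± 0.45 (adjusted p = 0.0418) was 0.73 without p53 KO replicate 1 (adjusted p = 0.302), with the call also lost without p53 WT replicate 2 (adjusted p = 0.159) or p53 WT replicate 3 (adjusted p = 0.135). Within each library, the level of HIST1H1E over that of HIST1H1C was higher in p53 KO, with a mean log2 ratio of -6.39 ± 0.49 in p53 WT and -4.72 ± 0.76 in p53 KO libraries. These groups did not overlap, with an exact permutation p of 0.1, the smallest that 3 against 3 allows.

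HIST1H2BM, the H2B gene with the highest log2 fold change of all members, had 0, 0 and 1 counts in p53 WT and 36, 11 and 4 counts in p53 KO libraries (adjusted p = 0.0265). Per unit of depth the p53 KO counts were 64.4 times the p53 WT counts, with an exact 95% interval for counting error of 11.0 to 2591. The call was lost without p53 WT replicate 1 (adjusted p = 0.118), p53 WT replicate 2 (0.141), p53 KO replicate 2 (0.0761) or p53 KO replicate 3 (0.0521), and the gene was not tested without p53 KO replicate 1. Without that library 0 of 46 tested clustered genes rose by edgeR, with 2 at an unadjusted p under 0.05, HIST1H2AD and HIST1H2AL; with all libraries 4 rose by DESeq2 and 5 by limma-voom.

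The other 41 tested genes of the clusters did not pass the test. All 9 tested H3 genes had log2 fold changes above 0, from 0.10 for HIST1H3H to 1.86 for HIST1H3C, but only 6 of the 9 without p53 KO replicate 1, where the lowest was -0.77 for HIST1H3I. Of all 14 tested H2A genes, the listed HIST1H2AC among them, 9 were above 0, with a median of 0.72. Without that library 12 were tested, of which 7 were above 0, with a median of 0.07. For these 12 the fit with all libraries also had 7 above 0, with a median of 0.40. Among the H2A genes HIST1H2AB, with 0, 6 and 0 counts in p53 WT and 40, 13 and 5 counts in p53 KO libraries, came to 3.38 ± 1.33 (adjusted p = 0.0775). HIST1H2AG, with the most counts of the clustered genes outside the list, came to -0.34 ± 0.27 (adjusted p = 0.401). Groups were apart for 9 clustered genes on the higher side, 7 of them H2A genes, and for 7 on the lower side, against 19.4% and 21.4% of all genes tested (40.8% together).

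Summed over all 68 clustered genes outside the list, the level was 39.0, 31.7 and 40.9 CPM in p53 WT and 60.1, 37.9 and 33.1 CPM in p53 KO libraries. The groups overlapped, and the ratio of the means was 1.18, or 0.956 without p53 KO replicate 1. The ratio was 2.02 for H1 genes (1.24 without that library), 1.16 for H2A genes (1.07), 1.60 for H3 genes (1.36) and 0.861 for H4 genes (0.725). For H2B genes it turned from 1.09 to 0.735 without that library. With the non-polyadenylated RNAs the sum shares its highest library, p53 KO replicate 1, and its lowest, p53 WT replicate 2.

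**Figure D2:**
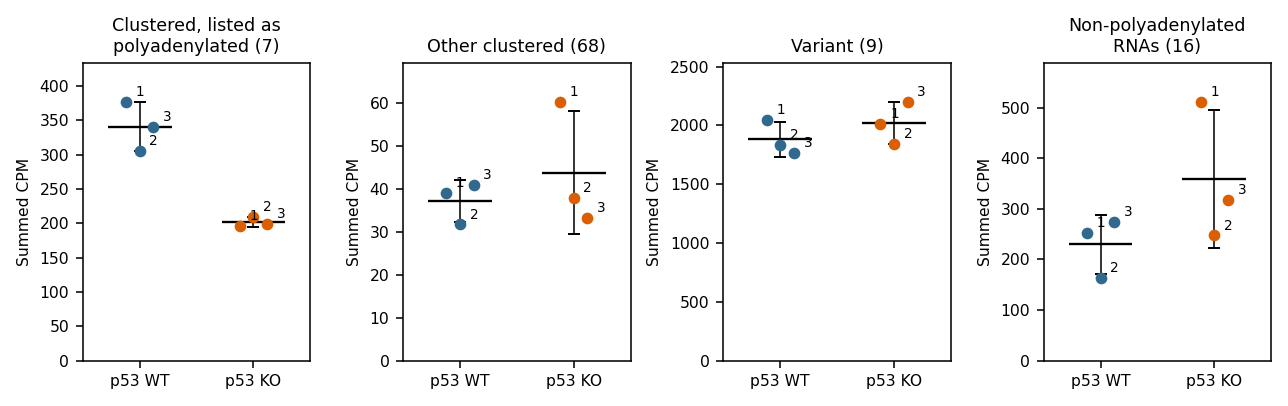
Summed level per library (CPM, linear axes from 0) of the clustered genes listed as giving tailed transcripts, the other clustered genes, the variant genes and RNAs that normally lack a tail, with replicate numbers beside the points and bars for the mean ± SD of 3 libraries. The listed genes are apart, and p53 KO replicate 1 is the highest library for the other clustered genes (60.1 CPM) and for the RNAs without a tail (511 CPM).

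By histone type, 5 of 15 tested clustered H2B genes fell and 1 rose, while 0 of 14 H2A genes and 0 of 9 H3 genes changed by edgeR. Over all genes tested 14.4% fell and 12.1% rose. The 5 H2B genes that fell are all on the list of tailed genes, and no tested H2B gene outside it fell. For H2B genes, type and list therefore cannot be told apart here. At an unadjusted p under 0.05, 3 of these H2A genes and 0 of the H3 genes were higher. With the other tools HIST1H2AL rose by DESeq2, and HIST1H2AB, HIST1H2AD and HIST1H3B by limma-voom. Among 4 linker H1 genes 1 fell and 1 rose, and among 9 H4 genes 1 fell. By cluster, 6 genes fell and 2 rose of 44 tested in HIST1 on chromosome 6, and 1 fell of 6 tested in HIST2. The 4 genes of HIST3 had too few counts to be tested, and HIST4H4 came to -0.09 ± 0.36.

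**Figure D3:**
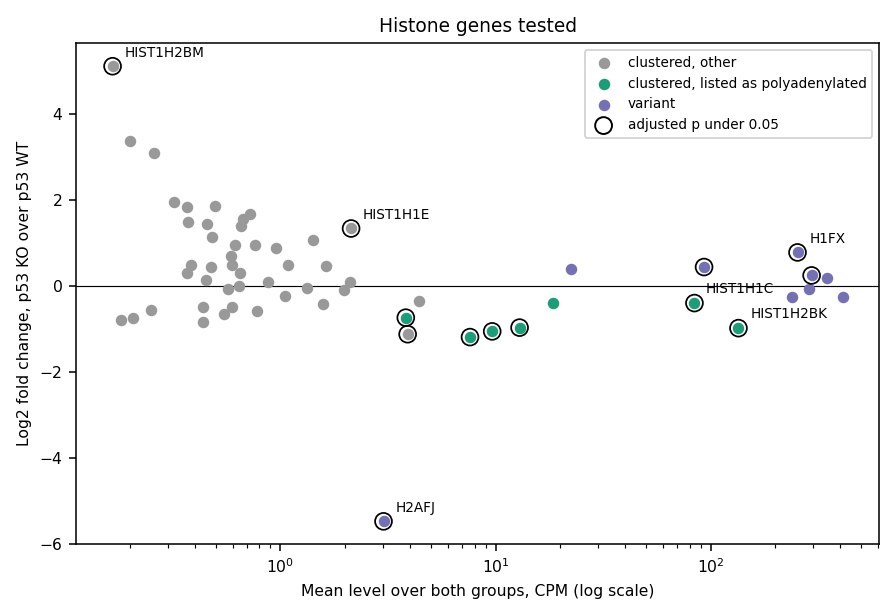
Log2 fold change (p53 KO over p53 WT) against the mean level over both groups (CPM, log axis) for the 60 histone genes tested, coloured by class, with rings on the 13 that passed an adjusted p of 0.05. The listed clustered genes lie below 0, the largest fold changes on the higher side belong to genes under 1 CPM, and H2AFJ lies lowest at -5.48.

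Divergent H2A and H2B genes share the stretch between their starts, so their ratio within a library compares both sides of 1 such stretch. HIST1H2BJ and HIST1H2AG, whose models lie 291 bases apart, had log2 ratios of 2.14, 1.60 and 1.66 in p53 WT and 1.14, 1.00 and 1.42 in p53 KO libraries. The groups were apart, with means of 1.80 ± 0.30 and 1.19 ± 0.22 and an exact permutation p of 0.1. For HIST2H2BE and HIST2H2AC, 322 bases apart, the ratio was 2.54 ± 0.29 in p53 WT and 2.02 ± 1.09 in p53 KO libraries, and the groups overlapped. Those of HIST1H2BC and HIST1H2AC, and of HIST1H2BK and HIST1H2AH, overlapped too. HIST1H2AH had only 3 to 85 counts per library. The SD of its ratio was 1.04 in p53 WT and 1.27 in p53 KO libraries, too wide to compare both sides.

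In the span of the HIST1 cluster, none of the genes examined between the histone genes passed the test on the lower side. Of 11 other genes there with a mean of at least 2 CPM 4 rose and 0 fell, whether by edgeR, DESeq2 or limma-voom, and 0 were lower at an unadjusted p under 0.05. Their log2 fold changes ran from -0.27 to 1.48, with a median of 0.29. Of all genes tested 12.1% rose and 14.4% fell. With so few genes in the span, finding none that fell cannot be told apart from that share. BTN2A2, a butyrophilin gene of the span chosen after its value was seen, rose by 1.48 ± 0.21. With the median shift of the 50 nearest genes (the local median) taken off, HIST1H2BK came to -1.18 (adjusted p = 6.40e-06), HIST1H2BD to -1.26 and HIST1H1C to -0.60.

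Promoters of 68 members could be matched in the RefSeq table, as windows of 250 bases before to 50 after the start. The octamer ATTTGCAT, on either strand, was in 1.80% of 27305 promoters, in 9 of 13 clustered H2B promoters and 11 of 16 H2A promoters, but in 1 of 31 H1, H3 and H4 promoters. It was in 3 of 6 matched clustered genes that fell and in 13 of 32 that were tested and did not change, among them HIST1H2AC. CCAAT, on either strand, was in all 13 H2B and all 16 H2A promoters against 35.7% of all promoters. TATAAA, here also on either strand, was in 40 of 60 clustered promoters against 12.0% of all. The p53 half-site was in 6 of 68 member promoters against 6.54% of all, and in none of the changed genes matched. The full p53 site was in 0 of the 68, against 8 of 27305 promoters (0.0293%). For sites this rare, finding none among so few promoters says little about these genes. No match says only that these letters are not in the window.

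Among the variant genes, H2AFJ fell to 0.173 ± 0.156 CPM from 5.86 ± 0.838 CPM (SD, n = 3 each), 3 others rose, and 5 did not pass the test. H2AFJ encodes H2A.J, an H2A variant known to accumulate in senescent cells with lasting DNA damage. It had 462, 450 and 122 counts in p53 WT and 0, 9 and 6 counts in p53 KO libraries, or 5.87, 6.69 and 5.01 CPM and 0, 0.220 and 0.301 CPM. The groups were far apart, and the log2 fold change was -5.48 ± 0.66 (adjusted p = 3.43e-05), the lowest of all members. Over the 6 fits that leave out 1 library it ranged from -6.24 to -4.54. Its neighbour WBP11, a splicing factor gene, had a log2 fold change of 0.00 ± 0.09, and HIST4H4, whose model lies 3251 bases away, came to -0.09, neither of which passed the test.

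H1FX, which encodes a linker histone variant, rose. It had 211, 173 and 175 CPM in p53 WT and 310, 264 and 387 CPM in p53 KO libraries. Each p53 KO library was above each p53 WT library, with a log2 fold change of 0.78 ± 0.13 (adjusted p = 0.000513) and 0.46 with the local median taken off (adjusted p = 0.0235). Its antisense partner H1FX-AS1 rose from 76.4 ± 7.43 to 133 ± 29.7 CPM, and as the strand setting of the count is not given, reads of the pair may not be told apart. H1F0, the linker histone typical of resting cells, had 321, 279 and 281 CPM in p53 WT and 297, 246 and 302 CPM in p53 KO libraries. The groups overlapped, and its log2 fold change of -0.06 ± 0.10 (95% interval -0.27 to 0.14; adjusted p = 0.729) turned to 0.022 without p53 KO replicate 2 and to 0.35 with the local median taken off.

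The level of HIST1H1C over that of H1F0 within a library fell, from a log2 ratio of -1.62 ± 0.09 in p53 WT to -1.95 ± 0.12 in p53 KO libraries, and the groups were apart (exact permutation p = 0.1).

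H3F3A and H3F3B encode the same replacement form of histone H3, and H3F3A rose. H3F3A had 77.0, 78.4 and 81.4 CPM in p53 WT and 93.0, 99.8 and 129 CPM in p53 KO libraries. It rose by 0.44 ± 0.12 (adjusted p = 0.0149), with groups apart, and the call was lost without p53 WT replicate 1 (adjusted p = 0.0532) or p53 WT replicate 2 (0.0640). Its processed copy H3F3AP4 rose by 0.62 ± 0.18, and reads of such near-identical copies can be counted to either.

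H3F3B had 477, 448 and 412 CPM in p53 WT and 386, 340 and 402 CPM in p53 KO libraries. The groups were apart, but the log2 fold change of -0.25 ± 0.10 did not pass the test (adjusted p = 0.0788), except without p53 KO replicate 3 (adjusted p = 0.0389) or by limma-voom (0.0367), and it was 0.00 with the local median taken off. Within each library the log2 ratio of H3F3A to H3F3B was -2.63, -2.51 and -2.34 in p53 WT and -2.05, -1.77 and -1.64 in p53 KO libraries. All p53 KO values were higher, by 0.68 on average (exact permutation p = 0.1).

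H2AFZ and H2AFV encode the H2A.Z proteins, which mark promoters and differ in few residues. H2AFZ had 366, 311 and 290 CPM in p53 WT and 365, 345 and 397 CPM in p53 KO libraries, and its log2 fold change of 0.20 ± 0.10 did not pass the test (adjusted p = 0.200). H2AFV had 295, 251 and 239 CPM in p53 WT and 215, 204 and 236 CPM in p53 KO libraries. Its groups were apart but its log2 fold change of -0.26 ± 0.10 did not pass (adjusted p = 0.0849), except without p53 KO replicate 3 (adjusted p = 0.0362) or by limma-voom (0.0443). With the local median taken off H2AFV came to -0.11 (adjusted p = 0.515) and H2AFZ to 0.20 (adjusted p = 0.224).

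The ratio of H2AFZ to H2AFV within a library separated the groups, though neither gene passed the test alone. The log2 ratio was 0.31, 0.31 and 0.28 in p53 WT and 0.76, 0.75 and 0.75 in p53 KO libraries. The groups were apart by many times their spread, with means of 0.30 ± 0.02 and 0.76 ± 0.01 (exact permutation p = 0.1, the smallest 3 against 3 allows).

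**Figure D4:**
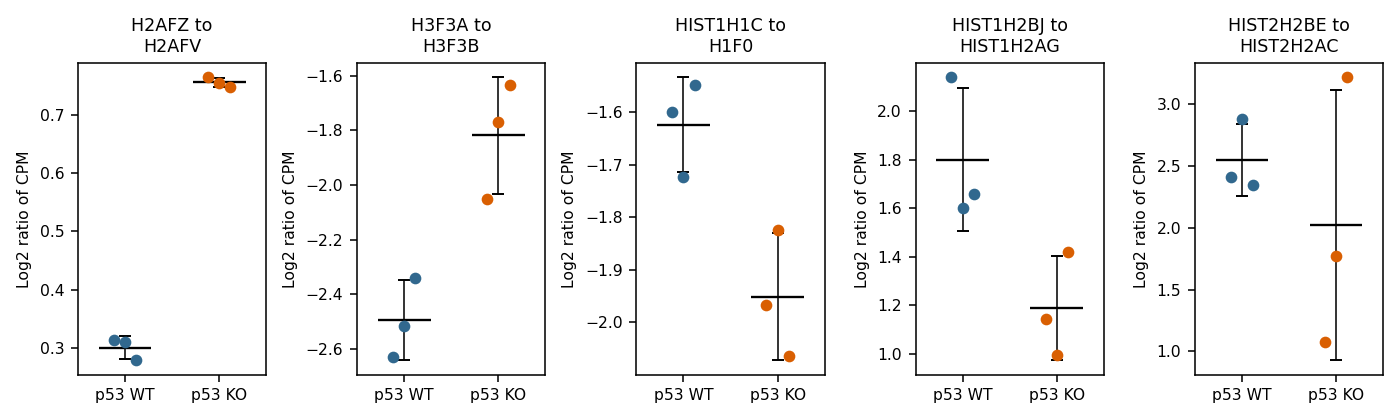
Log2 ratio of CPM within each library for 5 pairs of histone genes, with points for the 3 p53 WT and 3 p53 KO libraries and bars for the mean ± SD; the axes do not start at 0. Ratios of H2AFZ to H2AFV are 0.28 to 0.31 in p53 WT and 0.75 to 0.76 in p53 KO libraries, and those of HIST2H2BE to HIST2H2AC overlap.

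H2AFY and H2AFY2 encode the macroH2A proteins, variants with a large added domain that are enriched on silent chromatin. H2AFY had 276, 268 and 265 CPM in p53 WT and 325, 314 and 320 CPM in p53 KO libraries. The groups were apart and narrow, with a log2 fold change of 0.25 ± 0.08 (adjusted p = 0.0454), and the call was lost in 5 of the 6 fits that leave out 1 library (all but that without p53 KO replicate 3), with adjusted p from 0.0821 to 0.178. H2AFY2 had 19.2, 21.4 and 17.5 CPM in p53 WT and 22.9, 28.9 and 25.1 CPM in p53 KO libraries. Its groups were apart too, with a log2 fold change of 0.40 ± 0.14 just short of the threshold (adjusted p = 0.0514). It passed in 8 of 16 alternatives, among them the fits without p53 KO replicate 1 (adjusted p = 0.0413) or p53 KO replicate 3 (0.0465), DESeq2 (0.0427), and the fit with the local median taken off (0.74, adjusted p = 0.00211). The log2 ratio of H2AFY to H2AFY2 overlapped between the groups.

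Over the 9 variant genes together the level was 1882 ± 147 CPM in p53 WT and 2018 ± 179 CPM in p53 KO libraries, a ratio of 1.07 with overlapping groups. Over the 75 clustered genes it was 378 ± 39.4 and 245 ± 12.6 CPM, a ratio of 0.649 with groups apart.

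**Figure D5:**
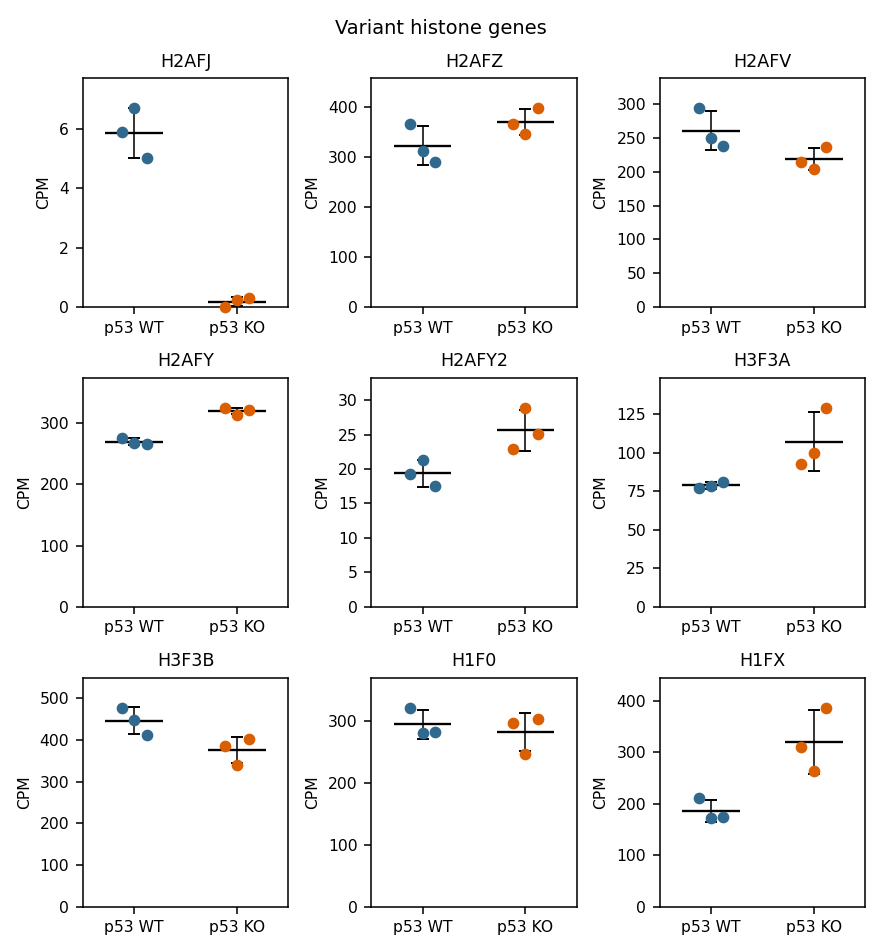
Levels (CPM, linear axes from 0) of the 9 variant histone genes, with points for the 3 p53 WT and 3 p53 KO libraries in the order of their replicate numbers and bars for the mean ± SD. H2AFJ is at 5.01 to 6.69 CPM in p53 WT and at 0 to 0.301 CPM in p53 KO libraries, and no other variant gene differs by more than H1FX, at 1.72-fold.

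The authors' deposited table gives the same direction for all 13 members called here, with an adjusted p under 0.05 for 10 of them. A column of the authors' deposited table records which genes overlap a p53 cistrome, meaning regions bound by p53. This mark is on 124 of the 35987 genes in the authors' deposited table, and among 79 members listed there on 2, HIST1H2BD and H2AFJ. All 124 marked genes have a log2 fold change of at least 1.02 (p53 WT over p53 KO) in the authors' deposited table, and no gene with a smaller difference carries the mark. HIST1H2BK, at 0.96 there, lies under that value and is unmarked. HIST2H2BE at 1.17 and HIST1H4H at 1.09 lie above it in the authors' deposited table and are unmarked too.

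Of the histone genes outside the rule, H2AFX and CENPA did not pass the test as fitted. H2AFX, the variant phosphorylated at DNA breaks, had 244 ± 26.8 CPM in p53 WT and 239 ± 18.3 CPM in p53 KO libraries, a log2 fold change of -0.03 ± 0.10 (adjusted p = 0.852). CENPA, the centromeric H3 variant, came to 0.09 ± 0.11, but to 0.47 with the local median taken off, where it passed (adjusted p = 0.00752). Of 5 such genes tested 1 fell, HILS1, with 62 counts in p53 WT and 1 count in p53 KO libraries, a ratio of 49.1 per unit of depth (exact 95% interval for counting error 8.50 to 1972), and its call was lost without p53 WT replicate 2, p53 WT replicate 3, p53 KO replicate 1 or p53 KO replicate 3.

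Among 17 genes for the transcription and end processing of histone RNA, all tested, 5 rose and 2 fell. Over all genes tested 12.1% rose and 14.4% fell, so the share that fell here was near that of all genes. NPAT, the coactivator of clustered histone genes, rose from 13.2 ± 1.03 to 22.0 ± 3.91 CPM, a log2 fold change of 0.75 ± 0.16 (adjusted p = 0.00334). SLBP rose by 0.34 ± 0.11 and CDK2, the kinase that activates NPAT, by 0.52 ± 0.09. CPSF2, a subunit of the cleavage complex, fell by 1.12 on the log2 scale. After the local median was taken off 1 rose (CDK2) and 0 fell by edgeR, with 0 lower at an unadjusted p under 0.05, while without that step 2 fell by DESeq2 and by limma-voom too. With the local median off, NPAT came to 0.18 and CPSF2 to -0.16. Without 1 library in turn 2 to 5 rose and 1 to 2 fell: only 2 rose without p53 WT replicate 1, 2 or 3, and 1 fell without any single library but p53 KO replicate 3.

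Of 37 histone chaperones and exchange factors, all tested, 5 rose and 7 fell, shares near the 12.1% and 14.4% of all genes. MCM2, a helicase subunit that also carries H3 and H4 at the fork, rose from 167 ± 8.45 to 311 ± 8.16 CPM, by 0.90 ± 0.09. ANP32E, which removes H2A.Z from chromatin, rose by 0.73 ± 0.10, and SUPT16H, a subunit of the FACT complex that handles H2A and H2B, came to -0.68 ± 0.09. HIRA, which places the replacement form of H3, fell from 141 ± 3.48 to 92.8 ± 7.23 CPM, a log2 fold change of -0.61 ± 0.10 (adjusted p = 0.000339), or -0.40 with the local median taken off (adjusted p = 0.00954). DAXX and ATRX, the other route for that H3 form, came to 0.09 ± 0.10 and -0.04 ± 0.15, and the S phase chaperone ASF1B to -0.12 ± 0.14, none of which passed. Counts without 1 library ran from 3 to 6 on the higher side, with 3 without p53 WT replicate 1 or 2, and from 4 to 6 on the lower side, with 4 without p53 WT replicate 3, p53 KO replicate 1 or p53 KO replicate 2. With the local median taken off 6 rose, 3 of them also without that step, and 2 fell, HIRA and SUPT16H.

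S phase genes are given because the clustered genes are made in that phase. Of 25 such genes, all tested, 9 rose and 3 fell, against 12.1% and 14.4% of all genes tested. The share that rose was above that of all genes, and the share that fell was near it. SLBP and CCNE2 are also on the list of histone RNA genes above. GINS2 of the replicative helicase rose by 1.12 ± 0.12 and MCM7 by 0.71 ± 0.10, while RRM2, a subunit of ribonucleotide reductase, came to -0.54 ± 0.09. Log2 fold changes were above 0 for 18 of the 25 and below 0 for 7, and the part of this list in the histone results was not tested. The count that rose was 4 without p53 WT replicate 2 and 5 without p53 WT replicate 3, and 1 gene fell without p53 KO replicate 1. With the local median taken off 5 rose, 4 of them also without that step, and 1 fell, TYMS, while none of the 3 that fell before did, and RRM2 came to -0.17 (adjusted p = 0.198).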

How the data were processed

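Members and lists were chosen with earlier results of these data known, so they are a description and not independent support. The authors deposited raw read counts per gene symbol for 6 libraries of polyadenylated RNA. Per the submitters' processing notes the tools were DESeq2 1.3.6, HISAT2 2.1.0 and fastp 0.21.0 and the build was GRCh37. How reads were counted, with which annotation and strand setting, is not given in the sources used here. Near-identical histone copies and overlapping genes are therefore uncertain as single genes. The authors' deposited table of their comparison gives p-values, a test score, a log2 fold change and a mean signal over libraries. Its fold changes have the opposite sign to the test score and were read as p53 WT over p53 KO, since CDKN1A is positive.

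Counts were fitted over all genes with edgeR 4.0.16 in R 4.3.3 (TMM factors, filterByExpr, robust quasi-likelihood F-test, Benjamini-Hochberg adjustment over 22352 genes). An adjusted p under 0.05 was called. Log2 fold changes set p53 KO over p53 WT, with an SE equal to their size over the root of F. CPM are means ± SD of 3 libraries, from 20393909 to 79767519 counts each. Ratios within a library are log2 of CPM, with 2-sided exact permutation tests. The test was tried on simulated counts. Alternatives were RLE, upper-quartile and no factors, no filter, at least 1 CPM in 3 libraries, DESeq2 1.42.0, limma-voom (limma 3.58.1), the replicate number as a block, an adjusted p under 0.01, each library left out, and an offset for the local median of the 50 nearest genes with at least 2 CPM. Named genes were the 9 variants, clustered genes called, the 8 most abundant clustered genes, the listed tailed genes, and the 3 smallest adjusted p of each context list with some fixed names. Gene models came from GENCODE 29 and promoters from RefSeq, both on GRCh38. The transcript of the deleted gene is not reported here.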

Additional observations from a re-analysis of the deposited data

How the results depend on the processing

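H1FX, H2AFJ, HIST2H2BE, HIST1H2BD, HIST1H2BJ and HIST1H2BK kept their direction and their call under all 16 alternatives run. HIST1H2BC lost its call in 12 of 16, H2AFY in 9, HIST1H1E in 5, H3F3A in 3, HIST1H1C and HIST1H4H in 2 each, and HIST1H2BM in 7 of the 14 that tested it. H1F0, at -0.06, came to -0.10 to 0.022 with 1 library left out, above 0 only without p53 KO replicate 2, and to 0.35 (adjusted p = 0.0303) with the local median taken off. The ratio of the summed clustered genes turned from 0.649 to 1.18 without the genes listed as tailed, which hold most of the sum, with overlapping groups and 0.956 if p53 KO replicate 1 is left out too. H2AFY2, not called by edgeR, was called in 8 of 16 alternatives. Clustered genes that rose numbered 2 by edgeR, 1 with no filter, 1 with the filter of 1 CPM in 3 libraries (which left 28 members), 4 by DESeq2, 5 by limma-voom, 0 at an adjusted p under 0.01, 1 with the local median taken off and 0 to 3 with 1 library left out; the causes were not tested. Clustered genes that fell numbered 4 at an adjusted p under 0.01 and 5 to 6 with 1 library left out, against 7. Variant genes that rose numbered 1 at an adjusted p under 0.01 and 1 to 4 with 1 library left out, against 3. Variant genes that fell numbered 3 by limma-voom and 1 to 3 with 1 library left out, against 1. The ratios of summed levels ran from 0.616 to 0.683 for clustered and from 1.02 to 1.12 for variant genes with 1 library left out.

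Replicate numbers are shared by the groups, but deviations from the group means correlated by 0.02, 0.03 and -0.03 for the same numbers, so the numbers were not taken as pairs. With the replicate block 1 clustered gene rose and 6 fell, 2 variant genes rose and 1 fell, 4 RNAs without a tail rose against 1, and 5159 genes were called in all, against 5924. Of the 68 clustered genes outside the tailed list 4 had a mean of at least 2 CPM, and the part of depth in their calls was not tested.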
